A study of Mus musculus with 8 samples.

Results

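The genes described here are markers of professional antigen-presenting cells, the B cells, macrophages and dendritic cells that take up foreign material and show it to T cells. The rule named 9 genes and took every probe set whose only gene symbol in the platform annotation is one of them. It found 12 probe sets of 8 genes, out of 18443 probe sets and 10401 singly named genes. The ninth gene, Cd68, had no such probe set and is not analysed here.

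Expression was measured in enterocytes, the epithelial cells lining the gut, isolated from the small intestine of male C57BL/6 mice aged 2.5 to 3.0 months on a standard diet. In IE-Cpr-null mice the intestinal epithelium is without Cpr (NADPH-cytochrome P450 reductase), the electron donor of microsomal P450 enzymes, and the WT group were their littermates. The cell type or promoter that drives the deletion is not given in the sources used here, and the targeted gene was not analysed here. Each genotype had 4 arrays, each carrying RNA pooled from 2 mice, so 8 mice stood behind a genotype and the errors measure the spread between pools. Values are log2 and centred per probe set on the median of the 4 WT arrays, so a value says how an array stands against typical WT and gives no level of expression.

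The intestinal wall holds many antigen-presenting cells beneath the epithelium. Macrophages and dendritic cells lie in the lamina propria, and B cells are densest in lymphoid follicles such as Peyer's patches. In such bulk RNA, fewer cells of a type and less RNA per cell cannot be told apart. The comparison of the genotypes asked whether the preparations differed in these cells.

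No marker of these cells passed the test between the genotypes. In limma, with Benjamini-Hochberg adjustment over all 18443 probe sets, 0 of the 12 probe sets had an adjusted p under 0.05, where 0.0217% of all probe sets did. At an unadjusted p under 0.05 there was 1 of 12, the Itgax probe set, against 7.4% of all probe sets (2.92% higher and 4.47% lower in IE-Cpr-null). This unadjusted count rose to 5 when WT replicate 1 was left out and to 4 when IE-Cpr-null replicate 3 was. It was 0 on leaving out IE-Cpr-null replicate 2 or 4. The share of 7.4% belongs to the fit on all arrays. No share of all probe sets is given for the fits with an array left out, so their counts have no background to be read against. The 4 arrays of each genotype overlapped in all 12, while in 4.11% of all probe sets they did not. The differences, IE-Cpr-null minus WT, were below 0 in 10 probe sets and above 0 in 2, with a median of -0.49, beside a median of 0.02 over all probe sets. Pools of the same genotype differed widely: in 7 of the 12 the range among the 4 WT arrays was above the 95th percentile of all probe sets.

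**Figure D1:**
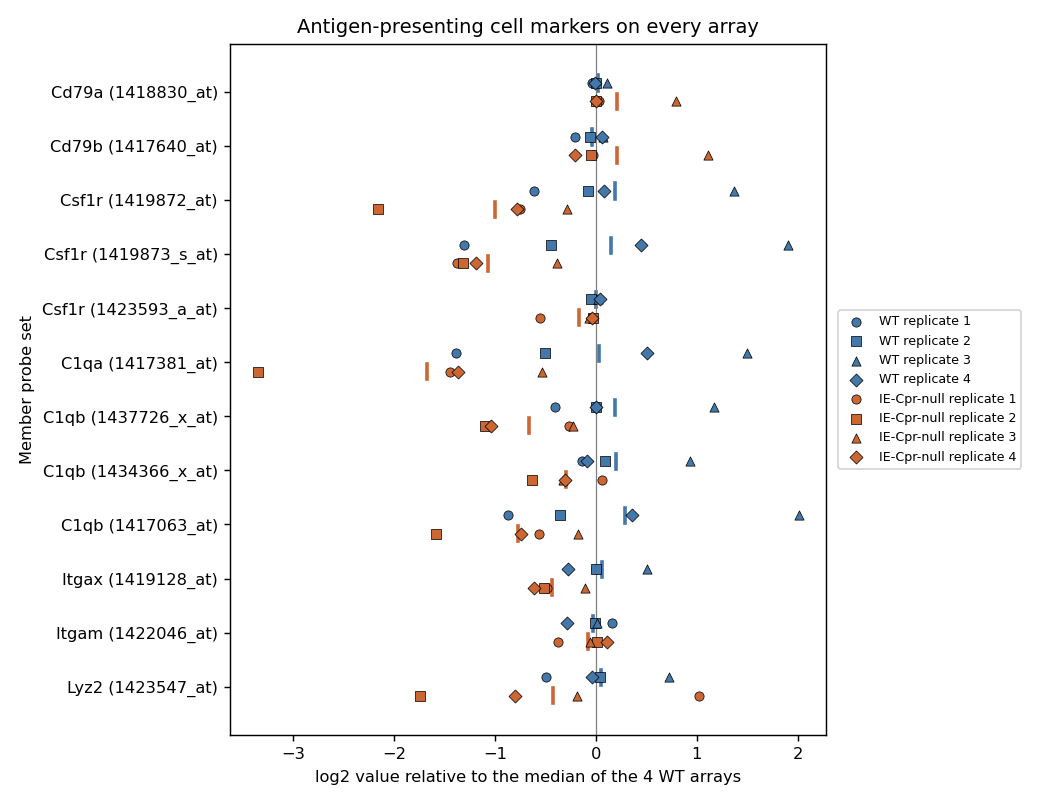
Each row is a member probe set, each symbol an array (shape, replicate number; colour, genotype), each coloured bar a group mean, and the x axis the log2 value against the WT median. WT replicate 3 is the highest array in 7 of the 10 macrophage, dendritic and lysozyme rows, and IE-Cpr-null replicate 3 stands alone in the Cd79a and Cd79b rows.

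Several pools stood apart on genes of other tissues. Mean values of a smooth muscle and stroma list were 1.47 on WT replicate 2 and 3.66 on IE-Cpr-null replicate 1, and between -0.42 and 0.13 on the other arrays. A hepatocyte list averaged 3.68 and 1.96 on IE-Cpr-null replicates 2 and 3, and between -0.14 and 0.12 elsewhere. Pancreatic acinar transcripts averaged -3.15 on WT replicate 3 and -0.50 to 1.15 on the other WT arrays, and lay between -3.42 and -1.26 in IE-Cpr-null. The enterocyte markers were even, with array means from -0.07 to 0.04. Being centred, the values do not show how abundant any of these transcripts were.

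For the macrophage genes C1qb and C1qc the sequence before the gene is shown because both transcripts moved together across the arrays. C1qa, C1qb and C1qc lie side by side on chromosome 4. The 250 bases before the start of each gene follow, from RefSeq with build GRCm38.p6, minus strand, C1qb at chr4:136886201-136886450 and C1qc at chr4:136892915-136893164. Capitals mark GAGGAA or its reverse complement TTCCTC, the core bound by PU.1, the transcription factor of macrophages and B cells.
C1qb: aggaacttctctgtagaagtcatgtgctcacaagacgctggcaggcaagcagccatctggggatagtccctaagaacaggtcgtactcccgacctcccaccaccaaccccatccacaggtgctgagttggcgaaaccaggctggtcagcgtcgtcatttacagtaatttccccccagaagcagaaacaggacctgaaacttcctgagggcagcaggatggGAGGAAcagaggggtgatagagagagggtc
C1qc: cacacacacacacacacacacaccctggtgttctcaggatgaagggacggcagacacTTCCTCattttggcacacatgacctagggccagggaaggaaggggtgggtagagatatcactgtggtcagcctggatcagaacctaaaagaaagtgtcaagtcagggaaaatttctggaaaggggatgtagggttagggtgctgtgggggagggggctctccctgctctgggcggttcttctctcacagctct
C1qb held the core once, 30 to 25 bases before the start, and C1qc once on the opposite strand, 193 to 188 bases before it. Searched on both strands, the core occurs in 23.4% of 32536 distinct windows of this length before mouse genes, so its presence is common and does not show a bound site. The octamer ATGCAAAT, a motif of B cell promoters, was in 1.62% of these windows on either strand and its letters are not in those of C1qb or C1qc.

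Among the members C1qa had the widest range over the 8 arrays. C1qa and C1qb encode chains of C1q, the molecule that starts the classical complement pathway and is made mainly by tissue macrophages. C1qa stood at -1.38, -0.51, 1.50 and 0.51 on WT replicates 1 to 4 and at -1.44, -3.35, -0.53 and -1.37 on IE-Cpr-null replicates 1 to 4. The pool highest in C1qa was WT replicate 3 and the lowest IE-Cpr-null replicate 2, and WT replicate 1 lay as low as 2 of the IE-Cpr-null pools. The difference was -1.70 (SE 0.771, 95% interval -3.50 to 0.09, 3.25-fold in size, limma adjusted p = 0.708). A spread of 2.88 among the WT pools alone was wider than in 99.6% of all probe sets.

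C1qb was measured by 3 probe sets. Its probe set 1417063_at stood at -0.88, -0.35, 2.01 and 0.35 in WT and at -0.56, -1.59, -0.18 and -0.74 in IE-Cpr-null. The difference was -1.05 there (SE 0.621, adjusted p = 0.815), -0.85 in 1437726_x_at (SE 0.371, adjusted p = 0.686) and -0.50 in 1434366_x_at (SE 0.257, adjusted p = 0.767) in limma. WT replicate 3 was the highest and IE-Cpr-null replicate 2 the lowest array in all 3. C1qc, the third chain and no member, stood at -1.19, -0.23, 2.04 and 0.23 in WT and at -1.11, -1.32, 0.02 and -1.24 in IE-Cpr-null, a difference of -1.13 (SE 0.665, limma adjusted p = 0.815).

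Csf1r encodes the receptor for colony-stimulating factor 1, on which macrophages depend for survival. Probe set 1419872_at stood at -0.62, -0.08, 1.37 and 0.08 in WT and at -0.76, -2.16, -0.29 and -0.78 in IE-Cpr-null, with a difference of -1.18 (SE 0.521, 95% interval -2.40 to 0.03, limma adjusted p = 0.694). Probe set 1419873_s_at differed by -1.22 (SE 0.646, adjusted p = 0.775 in limma), from WT values of -1.30, -0.45, 1.90 and 0.45. Its IE-Cpr-null values were -1.38, -1.31, -0.38 and -1.19. The third probe set, 1423593_a_at, did not follow these: WT values stayed between -0.04 and 0.04, and of the IE-Cpr-null arrays replicate 1 was at -0.55 and the rest between -0.06 and -0.03. Its spread among WT pools was wider than in only 14.9% of probe sets, so the size of any Csf1r difference depended on the probe set.

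Leaving out single pools moved these sizes without making a call. Without WT replicate 3 the difference was -1.21 for C1qa, -0.48 for C1qb (1417063_at), and -0.79 and -0.63 for the first 2 Csf1r probe sets. The other C1qb probe sets, 1437726_x_at and 1434366_x_at, were then at -0.53 and -0.25. Without IE-Cpr-null replicate 2 the difference was -1.14 for C1qa, -0.78 for C1qb (1417063_at), and -0.80 and -1.13 for those Csf1r probe sets. The third Csf1r probe set differed by -0.17, and by -0.04 without IE-Cpr-null replicate 1. WT replicate 3 was also the only WT pool low in acinar transcripts, and the part of those transcripts in the macrophage values was not tested. Without the 2 muscle-rich arrays the C1qa difference was -1.96, and without the 2 hepatocyte-rich arrays -1.43.

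**Figure D2:**
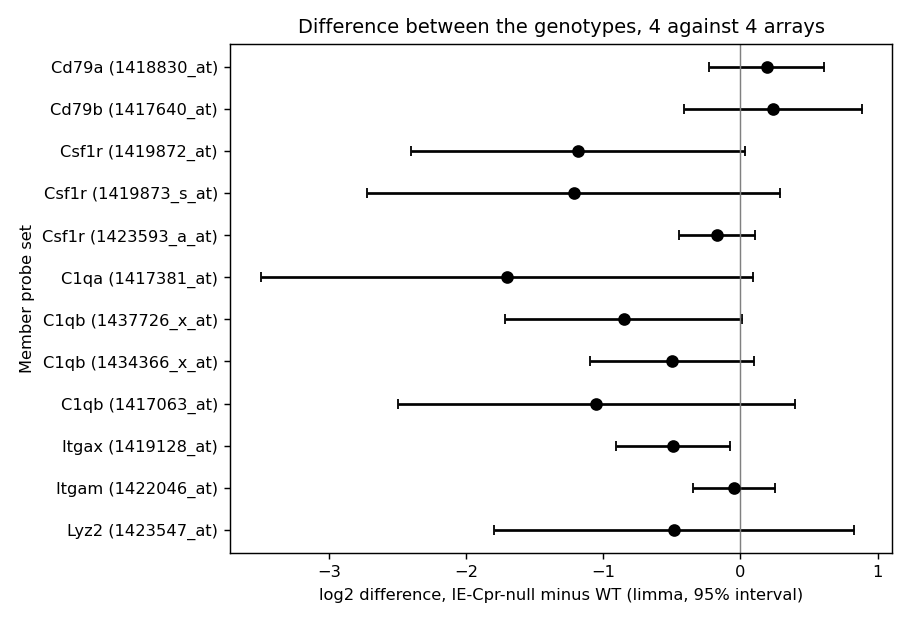
Each point is the log2 difference of a member probe set, IE-Cpr-null minus WT, from limma on 4 against 4 arrays, and each bar its 95% interval. The intervals of all but the Itgax probe set reach across 0, and the interval of C1qa runs from -3.50 to 0.09.

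The wider macrophage and monocyte list showed the same pool standing apart. Of its 31 genes, 24 were measured, 10 higher and 14 lower in IE-Cpr-null, and the median difference was -0.02 beside 0.02 over all named genes. None of its 34 probe sets passed in limma (0, with 1 at an unadjusted p under 0.05). Mpeg1, which encodes a pore-forming protein of macrophages, had the largest difference, -1.82 (SE 0.726, limma adjusted p = 0.638). It stood at -0.91, -0.14, 1.96 and 0.14 in WT and at -0.89, -2.75, -0.44 and -2.18 in IE-Cpr-null, so that the groups overlapped.

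WT replicate 3 was the highest array for 9 of the 24 genes of that list (37.5%), where it was highest for 8.77% of all named genes. It was the lowest for 4 (16.7%, against 26.2%). Among the 9 genes highest there Ms4a7, a membrane protein gene of macrophages, was 1.69 and -0.20 to 0.18 on the other WT arrays. Aif1, a cytoskeletal protein gene of macrophages, was 0.90 there and Fcgr3, a receptor for IgG, 0.73. The list mean was 0.33 on that array, -0.15 to 0.03 on the other WT arrays and -0.17 to -0.10 in IE-Cpr-null. Adgre1, which encodes the F4/80 antigen of mouse macrophages, stayed between -0.25 and 0.10 on all arrays. Its difference was -0.10 (SE 0.0899, limma adjusted p = 0.86). Tyrobp, Cd14, Mrc1 and Fcer1g, of the same list, were between -0.11 and 0.05 on WT replicate 3. Csf2ra, a chain of the receptor for another colony-stimulating factor, was higher in IE-Cpr-null, by 0.29 (SE 0.133, limma adjusted p = 0.715).

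**Figure D3:**
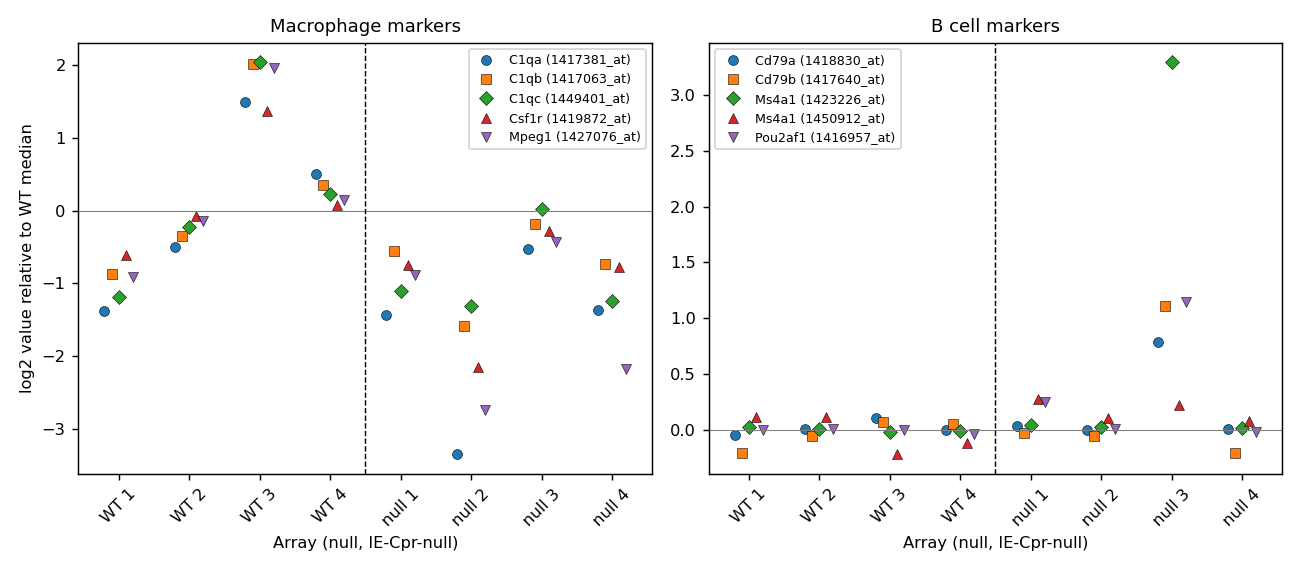
Points are log2 values relative to the WT median on each of the 8 arrays, for macrophage markers (left) and B cell markers (right), with a dashed line between the genotypes. C1qa, C1qb, C1qc, Csf1r and Mpeg1 are highest together on WT replicate 3, whereas Cd79a, Cd79b, Pou2af1 and 1 of the 2 Ms4a1 probe sets rise above the other arrays on IE-Cpr-null replicate 3.

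Itgax encodes CD11c, the integrin chain by which dendritic cells are usually recognised and which intestinal macrophages carry as well. It stood at 0.00, 0.00, 0.50 and -0.27 in WT and at -0.49, -0.51, -0.11 and -0.62 in IE-Cpr-null. Of the IE-Cpr-null pools, 3 lay below every WT pool and replicate 3 lay within the WT range. The difference was -0.49 (SE 0.177, 95% interval -0.90 to -0.08), with an unadjusted p of 0.0256 and an adjusted p of 0.569 in limma. Over the alternatives it ran from -0.61 to -0.32, with adjusted p from 0.105 to 0.97.

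Other dendritic cell genes differed little, except Irf8, but several of them hardly varied on any array. All 11 measured genes of that list had a higher mean in IE-Cpr-null, with a median difference of 0.05, where 5995 of 10401 named genes were higher with a median of 0.02. None of its 18 probe sets passed (0 in limma, 2 at an unadjusted p under 0.05). Those were the 2 probe sets of Irf8, a transcription factor of dendritic cells and B cells that also responds to interferon, with differences of 0.43 (SE 0.159) and 0.57 (SE 0.242). Flt3, the growth factor receptor of dendritic cell precursors, stayed between -0.10 and 0.06 on all arrays. Zbtb46, a transcription factor that marks conventional dendritic cells, stayed between -0.05 and 0.07 in both of its probe sets. The range over all arrays was wider than in only 19.6% of all probe sets for Flt3, and 10.4% and 7.4% for Zbtb46. Being nearly flat, these genes cannot show whether dendritic cell transcripts changed. The count of 11 and the median include such flat probe sets.

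Itgam encodes CD11b, the integrin chain of macrophages, monocytes and neutrophils, and lies next to Itgax on chromosome 7. It stood at 0.16, -0.01, 0.01 and -0.28 in WT and at -0.37, 0.01, -0.06 and 0.11 in IE-Cpr-null. The difference was -0.05 (SE 0.128, 95% interval -0.34 to 0.25, limma adjusted p = 0.895). It changed sign in 5 of 18 alternatives. Itgb2, the shared beta chain that pairs with both integrins, differed by 0.06 (SE 0.168, limma adjusted p = 0.891), and of 10 measured leukocyte integrin genes 7 were higher and 3 lower, with a median of 0.04 and 0 of 19 probe sets past the threshold in limma (0 also at an unadjusted p under 0.05).

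Cd79a and Cd79b stood apart on 1 pool. They encode the paired signalling chains of the B cell receptor and are found on nearly all B cells. Cd79a stood at -0.04, 0.01, 0.11 and -0.01 in WT and at 0.03, 0.00, 0.79 and 0.00 in IE-Cpr-null. Cd79b stood at -0.21, -0.06, 0.07 and 0.06 in WT and at -0.02, -0.05, 1.11 and -0.21 in IE-Cpr-null. In both genes IE-Cpr-null replicate 3 was above all other arrays, and its 3 companions lay within or close to the WT range.

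The genotype differences of the pair were 0.19 for Cd79a (SE 0.178, 95% interval -0.23 to 0.61) and 0.24 for Cd79b (SE 0.278, 95% interval -0.41 to 0.89), each with an adjusted p of 0.86 in limma. Without IE-Cpr-null replicate 3 they were -0.004 and -0.06, so their sign rested on that pool. It was 1 of the 2 pools rich in hepatocyte transcripts. The other, replicate 2, had 0.00 for Cd79a and -0.05 for Cd79b. Without both of them the differences were 0.001 and -0.08.

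Of the other B cell genes few were high on the same pool, several hardly varied on any array, and some that epithelial cells also use were lowest there. Ms4a1, which encodes CD20 of mature B cells, was 3.29 there in 1423226_at and between -0.02 and 0.04 on the other 7 arrays. Its second probe set, 1450912_at, was 0.22 there and between -0.22 and 0.28 elsewhere, so the probe sets disagreed. Pou2af1, a transcriptional coactivator of B cells, was 1.15 there and at most 0.25 elsewhere, and Cd22, an inhibitory B cell receptor, 0.60 against at most 0.04. Spib, a transcription factor of B cells that epithelial cells also use, was lowest there at -0.53. Cd24a, a surface protein gene of B cell precursors and epithelial cells, was lowest there in its 3 probe sets, at -0.39, -0.38 and -0.58. Ebf1, a transcription factor of the B lineage, was between -0.05 and 0.01 on that array in its 3 probe sets, and Fcer2a, Fcrla and Ly6d were between -0.04 and 0.00. These probe sets hardly varied on any array. Their ranges over all arrays ran from 0.08 for Ly6d to 0.19 for Ebf1, except for 0.30 in a Fcer2a probe set. Being nearly flat, they cannot show whether B cell transcripts rose on that array. Jchain, which encodes the chain joining IgA and IgM in plasma cells, had 1.11 on WT replicate 3 and 0.22 on IE-Cpr-null replicate 3. The probe sets of Ighm disagreed too. Those highest on IE-Cpr-null replicate 3 stood there at 0.83 and 0.60, against at most 0.32 and 0.55 elsewhere. The others were highest on other arrays, among them a probe set at 2.08 on WT replicate 3 and -0.19 on IE-Cpr-null replicate 3.

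In the whole B cell and plasma cell list, 13 of 26 genes were measured, 8 higher and 5 lower, and their median was 0.03. None of the 27 probe sets passed (0 in limma, 1 at an unadjusted p under 0.05, an Ighm probe set at -0.21, SE 0.0755). IE-Cpr-null replicate 3 was the highest array for 3 of the 13 genes, or 23.1%, against 12% of all named genes, and the lowest for 2. IE-Cpr-null replicate 1 was the highest for 6 (46.2%, against 31.8%). Signalling genes downstream of the receptor gave 6 higher and 4 lower of 10 measured, with a median of 0.07. Of their 16 probe sets none passed (0 in limma, 2 at an unadjusted p under 0.05). The smallest p was that of Nfatc1, a calcium-responsive transcription factor (0.29, SE 0.0714, limma adjusted p = 0.339), and Blnk, the B cell linker, differed by -0.21 (SE 0.0728, limma adjusted p = 0.549).

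**Figure D4:**
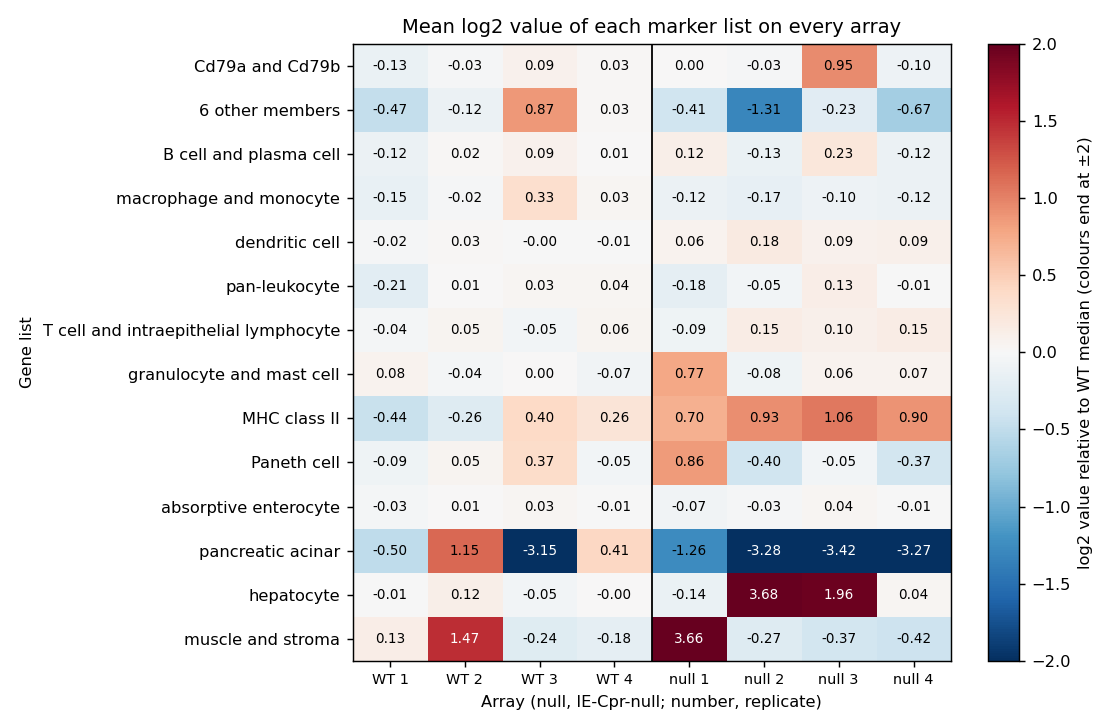
Each cell gives the mean log2 value of a gene list (rows) on an array (columns; null, IE-Cpr-null), over the measured genes of the list, coloured from -2 to 2. The macrophage list is highest on WT replicate 3, at 0.33, and the MHC class II list runs from 0.70 to 1.06 in IE-Cpr-null and from -0.44 to 0.40 in WT.

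Lyz2 encodes the lysozyme of macrophages and neutrophils, and Lyz1 beside it on chromosome 10 encodes the closely similar lysozyme of Paneth cells, the antimicrobial cells of the crypt base. The 250 bases before each gene of the pair follow, in RefSeq build GRCm38.p6 on the minus strand. They are chr10:117282273-117282522 for Lyz2 and chr10:117292869-117293118 for Lyz1. No letters are in capitals because neither holds the GAGGAA core.
Lyz2: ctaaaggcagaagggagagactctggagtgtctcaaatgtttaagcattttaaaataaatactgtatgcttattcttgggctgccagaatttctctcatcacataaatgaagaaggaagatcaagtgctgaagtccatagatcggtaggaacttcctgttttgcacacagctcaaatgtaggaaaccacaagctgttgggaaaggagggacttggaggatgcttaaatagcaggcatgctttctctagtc
Lyz1: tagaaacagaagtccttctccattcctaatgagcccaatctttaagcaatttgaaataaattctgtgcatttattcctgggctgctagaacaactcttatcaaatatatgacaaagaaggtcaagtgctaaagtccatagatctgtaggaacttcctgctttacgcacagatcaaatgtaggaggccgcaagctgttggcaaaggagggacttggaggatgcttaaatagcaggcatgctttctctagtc
In a global alignment 200 positions were identical, or 80% of the 250, against 50.4% for C1qb and C1qc. These bases lie before the gene, so they do not show how alike the transcripts are. How the probes of each set match the transcript of the other gene was not tested, so the Lyz2 and Lyz1 values are uncertain.

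Lyz2 stood at -0.50, 0.04, 0.72 and -0.04 in WT and at 1.02, -1.74, -0.19 and -0.80 in IE-Cpr-null. The highest and the lowest of the 8 pools were both IE-Cpr-null, replicates 1 and 2. The difference was -0.48 (SE 0.564, 95% interval -1.80 to 0.83, limma adjusted p = 0.86). It was 0.06 without the 2 hepatocyte-rich arrays and -0.97 without the 2 muscle-rich ones. Single pools moved it from -0.97 without IE-Cpr-null replicate 1 to -0.045 without IE-Cpr-null replicate 2, and it was -0.26 without WT replicate 3.

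The Lyz2 values followed Lyz1 array by array. Lyz1 probe set 1436996_x_at stood at -0.48, 0.11, 0.89 and -0.11 in WT and at 1.33, -1.64, -0.24 and -0.71 in IE-Cpr-null, and 1439426_x_at differed little from it. The third Lyz1 probe set, 1450822_at, stayed between -0.02 and 0.02 in WT and between -0.36 and 0.26 in IE-Cpr-null. On IE-Cpr-null replicate 1, where Lyz2 was 1.02 and the macrophage gene C1qa -1.44, the Paneth cell genes Mmp7, a matrix protease that activates defensins, and Itln1, an intelectin, were 2.93 and 1.27. Other genes of the Paneth list went the opposite way there: Reg3g and Reg3b, which encode antimicrobial lectins that enterocytes also make, were lowest on that array, Reg3g at -0.58 and the 2 probe sets of Reg3b at -0.49 and -0.81. Of the 15 genes of the list 7 were measured, 5 of them highest on that array (71.4%, against 31.8% of all named genes) and 2 lowest. The part of Paneth cell transcripts in the Lyz2 value was not tested.

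**Figure D5:**
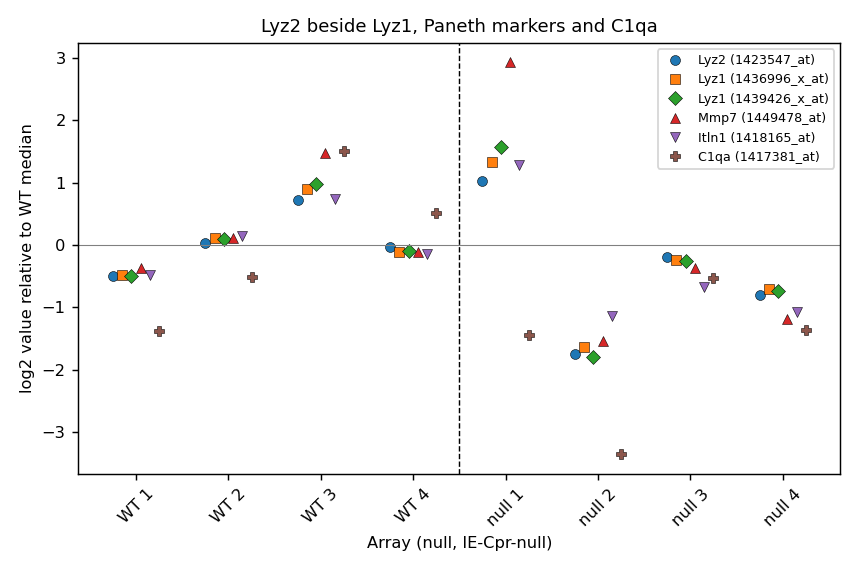
Points are log2 values relative to the WT median on each array, with a dashed line between the genotypes. On IE-Cpr-null replicate 1 Lyz2 is 1.02, near Itln1 at 1.27 and 2 of the Lyz1 probe sets at 1.33 and 1.58. Mmp7 is higher there, at 2.93, and C1qa is at -1.44. The third Lyz1 probe set is not drawn, nor are Reg3g and Reg3b, which were lowest on that array.

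Genes with the most similar pattern were taken from all named genes outside the members by Pearson r over the 8 arrays, as a description. For the mean of Cd79a and Cd79b they were Evi2a (0.98), Cd22 (0.978), Ptgfrn (0.972), Zfr2 (0.969) and Amotl2 (0.966). For the mean of the other 6 members they were Mpeg1 (0.982), an immunoglobulin kappa variable segment (0.97), Ms4a6b (0.967), Ywhah (0.962) and Rp9 (0.959). The first set rests on IE-Cpr-null replicate 3, where its 5 genes lay between 0.44 and 0.95, and the second on the macrophage genes' high and low pools, WT replicate 3 and IE-Cpr-null replicate 2.

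Genes that work with the members were described from lists. Of the classical complement genes 5 of 8 were higher and 3 lower, with a median of 0.02, and 0 of 10 probe sets passed in limma (1 at an unadjusted p under 0.05). That was C2, the protease that C1 cleaves and that the epithelium can also make, at 0.72 (SE 0.175, adjusted p = 0.339 in limma), above every WT array on all 4 IE-Cpr-null arrays, as 1.64% of all probe sets were. Of 8 measured genes of the CSF1 receptor pathway 6 were higher and 2 lower, with a median of 0.03 and 0 of 18 probe sets past the threshold in limma (1 at an unadjusted p under 0.05, the adaptor Grb2, 0.16, SE 0.055).

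Lysosomal genes, which phagocytes and enterocytes share, had 8 of 9 measured genes lower and a median difference of -0.09. None of the 18 probe sets passed (0 in limma, 5 at an unadjusted p under 0.05, all lower, as 4.47% of all probe sets were). These came from fewer genes, namely Ctsl, Lgmn (-0.62) and several probe sets of Ctsb (-0.20, -0.15 and -0.50). In 3 of the 18 every IE-Cpr-null array lay below every WT array, against 2.47% of all probe sets. They belonged to the cathepsin genes Ctsl (-0.31, SE 0.0712), Ctsb (-0.15, SE 0.0555) and Ctsd (-0.09, SE 0.0366). For Ctsl, which had the smallest p, the limma adjusted p was 0.332.

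No pan-leukocyte gene passed the test. All 20 pan-leukocyte genes were measured, 11 higher and 9 lower, their median being 0.03, and 0 of 27 probe sets passed in limma (0 also at an unadjusted p under 0.05). Ptprc, the gene of the common leukocyte antigen CD45, differed by -0.06 (SE 0.107, limma adjusted p = 0.863). The list means were -0.21, 0.01, 0.03 and 0.04 for the WT pools, against -0.18, -0.05, 0.13 and -0.005 for the IE-Cpr-null pools. IE-Cpr-null replicate 3, the pool high in Cd79a and Cd79b, was the highest array for 8 of the 20 genes (40%, against 12% of all named genes). WT replicate 1, low in C1qa, had the lowest mean. IE-Cpr-null replicate 2, the pool lowest in C1qa, had a mean of -0.05 and was the lowest array for 0 of the 20.

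Other immune cells gave no call in limma either (0 of 21 T cell probe sets, 2 at an unadjusted p under 0.05, and 0 of 10 granulocyte and mast cell probe sets, 0 at an unadjusted p under 0.05). T cell and intraepithelial lymphocyte genes had a median difference of 0.11, with 13 of 17 higher and array means from -0.09 to 0.15. Granulocyte and mast cell genes had a median of 0.03, with 8 of 9 higher. The mean of that list was 0.77 on IE-Cpr-null replicate 1, the array richest in muscle, and -0.08 to 0.08 on the others.

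MHC class II genes, through which all these cells present peptides, are given beside their markers. Array means of that list were -0.44, -0.26, 0.40 and 0.26 for the WT pools, against 0.70, 0.93, 1.06 and 0.90 for the IE-Cpr-null pools. The mean of the 6 macrophage, dendritic and lysozyme members was -0.47, -0.125, 0.87 and 0.03 for the WT pools, against -0.41, -1.31, -0.23 and -0.67 for the others. The pool lowest in C1qa, IE-Cpr-null replicate 2, had the second highest class II mean. Of the 14 class II probe sets 0 passed in limma over all probe sets. At an unadjusted p under 0.05 there were 11 higher, against 2.92% of all probe sets, and 1 lower, against 4.47%. In 11 each IE-Cpr-null value exceeded each WT value, against 1.64%, and in 1, against 2.47%, each lay below. The lower one was Ifi30, a lysosomal reductase that prepares antigens, at -0.10 (SE 0.0413, limma adjusted p = 0.662). The median difference of the class II list was 0.95. Ciita had the smallest p, with a difference of 2.15 in 1421210_at (SE 0.362, limma adjusted p = 0.199). H2-Ab1 followed, at 1.19 in 1425477_x_at (SE 0.23, limma adjusted p = 0.252). Whether the class II and the marker differences differ from each other was not tested.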

How the data were processed

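Enterocyte RNA of 8 arrays, 4 WT and 4 IE-Cpr-null, was analysed from the table of log2 values that the authors deposited. GCRMA is the method named in the submitters' processing notes, without version or settings. The deposited log2 values are also centred per probe set, since the median of the 4 WT arrays was 0 in all 18443 probe sets. Signal over background is therefore unknown, no filter on dim probe sets was possible, and the number of arrays limits the precision. Sample titles gave genotype and replicate number. No batch is named in the labels, and none was tested.

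Probe sets were named from the platform annotation (1 symbol in 16689, several in 616, none in 1138). Each was tested with limma 3.58.1 in R 4.3.3 (lmFit and eBayes, two-sided, no block), with Benjamini-Hochberg adjustment over all probe sets and a threshold of 0.05. Intervals are 95% intervals from that fit. Genes in lists were described by the mean of their probe sets, with counts and medians and no test of a list. The fit was also run on simulated data, whose outcome is not given here, so how large a difference it could call is not stated.

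The members and the 17 other lists were chosen with earlier results of these data known. The written rule for named genes took all member probe sets, defining markers, in each list the genes with the smallest p and the largest difference, and the 5 most similar genes. Only lists of immune cells, their pathways and Paneth cells have genes named. Even there, some genes that the rule took are not described, among them Mcpt1, Klrd1, Cd160, Rac2, Cytip and Cbl. Zbtb46, Ms4a7, Aif1, Fcgr3, Tyrobp, Cd14, Mrc1, Fcer1g, Pou2af1, Ebf1, Jchain, Spib, Cd24a, Fcer2a, Fcrla, Ly6d, Ctsb, Ctsd, Ifi30, Reg3b and Mmp7 fall outside the rule and were named after their values were seen. Alternatives were quantile normalization, median centring, array weights, a block for the replicate number, removal of probe sets with shared-probe suffixes, gene means, a robust prior, restriction to the more variable probe sets (SD over the median), each array left out, and leaving out arrays whose muscle or hepatocyte list mean was above 1.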

Additional observations from a re-analysis of the deposited data

Results flagged for a closer look

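In 44 groups of 4 arrays, from the member and defining-marker probe sets, 5 arrays lay far from the others of their genotype by Dixon's criterion for 4 values. Chance alone does so in about 1 group in 20. On IE-Cpr-null replicate 3 these were Cd79b at 1.11, Cd79a at 0.79, the Ms4a1 probe set 1423226_at at 3.29 and C1qc at 0.02. The first 3 are B cell genes and C1qc is a macrophage gene, whose other IE-Cpr-null values lay between -1.32 and -1.11. On IE-Cpr-null replicate 1 it was the Csf1r probe set 1423593_a_at at -0.55. The other 2 Csf1r probe sets showed no such array.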

How the results depend on the processing

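No member probe set passed the threshold in any of the 19 settings, the reported one included. The lowest limma adjusted p was 0.0605, for C1qb 1437726_x_at with array weights. That setting leaned on IE-Cpr-null replicate 4 (weight 6.487) and WT replicate 4 (2.838), the other weights being 0.329 to 0.992. The 1 member at an unadjusted p under 0.05 became 7 with array weights, 5 with the replicate number as a block and 4 with the more variable probe sets. It became 0 to 5 on leaving out 1 array, and 0 with quantile normalization or without the muscle-rich arrays. The share of all probe sets at that level, 7.4%, is given for the reported fit only. These counts therefore have no share of their own setting beside them. For 8 of the 12 the direction held in all alternatives that tested them. Itgam changed sign with quantile normalization (0.061), array weights (0.213), without the muscle-rich arrays (0.059), and on leaving out WT replicate 1 (0.017) or IE-Cpr-null replicate 1 (0.051). Cd79b did so with array weights (-0.103), without the hepatocyte-rich arrays (-0.082) and without IE-Cpr-null replicate 3 (-0.06), Cd79a without IE-Cpr-null replicate 3 (-0.004) and Lyz2 without the hepatocyte-rich arrays (0.056). Leaving out 1 array gave -0.132 to 0.051 for Itgam, -0.06 to 0.379 for Cd79b and -0.004 to 0.259 for Cd79a. The 3 calls higher and 1 lower over all probe sets became 1 and 0 with quantile normalization, 352 and 389 with array weights, and 1 and 2 without the muscle-rich arrays. Gene means gave 0 lower, leaving out the hepatocyte-rich arrays 0 lower, and the more variable probe sets (SD over the median) 6 higher. Leaving out 1 array gave 1 to 12 higher and 0 to 4 lower: 1 and 0 without WT replicate 1, 2 or 4. For the IE-Cpr-null pools it was 12 and 4 without replicate 1, and 6 higher without replicate 2. The causes were not tested. With the replicate number as a block the calls were 1 higher and 0 lower. Same-numbered arrays deviated together with r of -0.058, -0.041, 0.256 and 0.131, and 2 of the 4 WT arrays correlated best with their own number, so the numbers were not taken as pairs. List medians under the alternatives were computed after seeing the data. The dendritic cell median was 0.15 with the more variable probe sets, and ran from 0.03 upward. The macrophage list ran from -0.14 to 0.01, the B cell list from -0.05 to 0.05 and the pan-leukocyte list from -0.06 to 0.05, so their directions were not settled. The class II list stayed between 0.76 and 1.12.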
